A study of Mus musculus with 12 samples.

Results

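The genes that carry long-chain fatty acids into liver cells and through their cytoplasm were examined in livers of male mice with or without Pml. The set comprised 10 genes, chosen by name: Cd36, Fabp1, Fabp2, Fabp4, Fabp5, Slc27a2, Slc27a4, Slc27a5, Acsl1 and Acsl5. Every probe set annotated to exactly 1 of these symbols was taken. This gave 15 probe sets for 9 of the 10 genes, among 28898 probe sets for 17097 genes on the array. Acsl1 was named by no probe set in the annotation used and was not analysed here. Of the 15 probe sets, 14 were bright enough to be tested, and the exception was the dimmest of 3 probe sets for Fabp4.

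The livers fell into 4 groups of 3 arrays: wild-type mice on a low-fat diet, wild-type mice on a high-fat diet, PML knockout mice on a low-fat diet and PML knockout mice on a high-fat diet. Fat supplied 10% of the calories of the low-fat diet and 60% of those of the high-fat diet. Each diet was eaten for 20 weeks, and all mice fasted for 8 h before the liver was taken. The 3 extracts of a group came from a group of 8 mice. The labels do not say outright that each extract came from its own mouse, so p-values measure the spread between extracts, and a liver stands for 1 extract throughout. The strain, the age and the knockout allele are not given in the sources used here.

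Long-chain fatty acids reach the hepatocyte from the blood, cross the plasma membrane with the help of CD36 and of the fatty acid transport proteins (the Slc27 family), and are made into acyl-CoA by acyl-CoA synthetases (the Acsl family and some Slc27 proteins), which keeps them in the cell. In the cytoplasm they are carried by small fatty acid binding proteins (the Fabp family), of which Fabp1 is the main one in hepatocytes. Several of these genes are textbook targets of the nuclear receptor PPARα, which pairs with RXR and binds direct repeats of a short half-site spaced by a single base, the DR1 element. PML is the protein that organises nuclear bodies, and the series' title names PPAR signalling as its subject.

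The stretch of 250 bases before the annotated start was available for 7 of the 10 genes, with a second start for Acsl1, which made 8 promoters (RefSeq, GRCm38.p6). The promoters printed are those of 3 genes that passed the test of diet (Slc27a2, Fabp2 and Acsl5) and of the pair that held a match to the DR1 element (Fabp1 and Cd36). They are read 5′ to 3′ on the strand of the gene, and capitals mark the match.

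Fabp1, chr6:71199629-71199878, plus strand: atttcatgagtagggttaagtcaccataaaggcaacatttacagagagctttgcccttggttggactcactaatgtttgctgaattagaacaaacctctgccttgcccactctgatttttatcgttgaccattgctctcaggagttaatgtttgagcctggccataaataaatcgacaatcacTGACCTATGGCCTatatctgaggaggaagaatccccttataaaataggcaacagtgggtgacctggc
Cd36, chr5:17835897-17836146, minus strand: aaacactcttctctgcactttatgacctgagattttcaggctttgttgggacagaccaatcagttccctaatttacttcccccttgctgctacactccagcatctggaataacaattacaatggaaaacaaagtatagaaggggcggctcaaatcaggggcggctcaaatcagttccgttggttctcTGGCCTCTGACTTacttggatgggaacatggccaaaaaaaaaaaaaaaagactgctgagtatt
Slc27a2, chr2:126552774-126553023, plus strand: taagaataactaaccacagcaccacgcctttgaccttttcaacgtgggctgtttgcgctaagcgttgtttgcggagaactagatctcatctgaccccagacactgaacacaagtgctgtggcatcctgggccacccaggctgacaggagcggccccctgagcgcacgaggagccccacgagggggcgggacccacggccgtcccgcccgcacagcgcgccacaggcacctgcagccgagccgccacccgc
Fabp2, chr3:122894822-122895071, plus strand: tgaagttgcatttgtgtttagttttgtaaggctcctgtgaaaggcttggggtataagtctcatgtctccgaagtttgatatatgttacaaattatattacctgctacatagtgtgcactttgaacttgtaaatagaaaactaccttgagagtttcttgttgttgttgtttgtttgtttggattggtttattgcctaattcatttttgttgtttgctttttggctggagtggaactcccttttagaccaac
Acsl5, chr19:55253119-55253368, plus strand: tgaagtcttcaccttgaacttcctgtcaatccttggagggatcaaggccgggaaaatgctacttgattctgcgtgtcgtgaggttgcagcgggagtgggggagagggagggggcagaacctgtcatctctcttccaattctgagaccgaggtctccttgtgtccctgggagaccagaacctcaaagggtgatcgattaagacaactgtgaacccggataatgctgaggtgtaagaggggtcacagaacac

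The DR1 search used the half-site AGGTCA repeated after 1 free base, on both strands, and allowed 2 mismatches among the 12 fixed letters. It matched 3.24% of 32851 mouse promoters of the same length and 2 of the 8 promoters of the set. The match in the Fabp1 promoter, TGACCTATGGCCT, lay 67 to 55 bases before the start on the opposite strand and had 1 mismatch. The match in the Cd36 promoter, TGGCCTCTGACTT, lay 63 to 51 bases before the start, also on the opposite strand, with 2 mismatches. The DR4 element, the same half-site repeated after 4 free bases, was found with up to 2 mismatches in 2.57% of all promoters and in 0 of the 8. The E-box CACGTG without a mismatch was in 6.02% of all promoters and in 0 of the 8. Each match describes letters in this window only.

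The values were log2 signals in which a step of 1 is a doubling. The level of a probe set was compared between livers and not with that of another probe set. Correlations between arrays lay between 0.986 and 0.995 over all probe sets. The brighter of the Pml probe sets read 4.92 to 5.40 in wild-type livers and 3.04 to 3.82 in knockout livers, with no overlap. Markers of hepatocytes averaged 12.40 to 12.55 in all 12 livers. The mean of 12 macrophage and Kupffer cell markers was 4.92 in knockout low-fat replicate 2 and 5.51 in knockout high-fat replicate 3, against 6.04 to 6.95 in the other 10 livers. Endothelial markers averaged 6.06 in knockout low-fat replicate 2, 5.99 in knockout high-fat replicate 2 and 5.98 in knockout high-fat replicate 3, against 6.53 to 7.02 elsewhere. Of the adipocyte markers, Adipoq (mean 3.11) and Lep (mean 2.75) lay under the brightness limit, and Retn was at 4.12. Of 6 enterocyte markers with a probe set, 5 lay under that limit. In bulk liver, fewer cells of a type and less RNA per cell cannot be told apart.

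The high-fat diet was accompanied by lower Fabp5 and Acsl5 and by higher Fabp2 and Slc27a2 when both genotypes were averaged (6 high-fat against 6 low-fat livers). Of the 14 tested probe sets, 2 were called higher and 3 lower at an adjusted p under 0.05 (limma, Benjamini-Hochberg over 17339 probe sets). Among all probe sets tested, 2.94% were called in this comparison, 1.60% higher and 1.34% lower. The median log2 change was 0.05 over the 14 probe sets and -0.01 over all tested. High-fat and low-fat livers did not overlap in 4 of the 14 probe sets, against 2.57% of all tested. In wild-type livers alone 0 of the 14 were called, against 0.138% of all, and 5 of the 14 had an unadjusted p under 0.05, against 8.24% of all. The wild-type diet groups did not overlap in 4 of the 14, against 15.1% of all. In knockout livers alone 1 of the 14, Slc27a2, was called, against 1.83% of all (1.11% higher), and 9 of the 14 had an unadjusted p under 0.05, against 15.7% of all. The knockout diet groups did not overlap in 8 of the 14, against 19.5% of all. All these counts are of probe sets and not of genes. Probe sets of the same gene moved together for Cd36 (r = 0.96 between 1423166 and 1450883) and for Fabp5 (r = 1.00), so they are not separate cases.

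**Figure D1:**
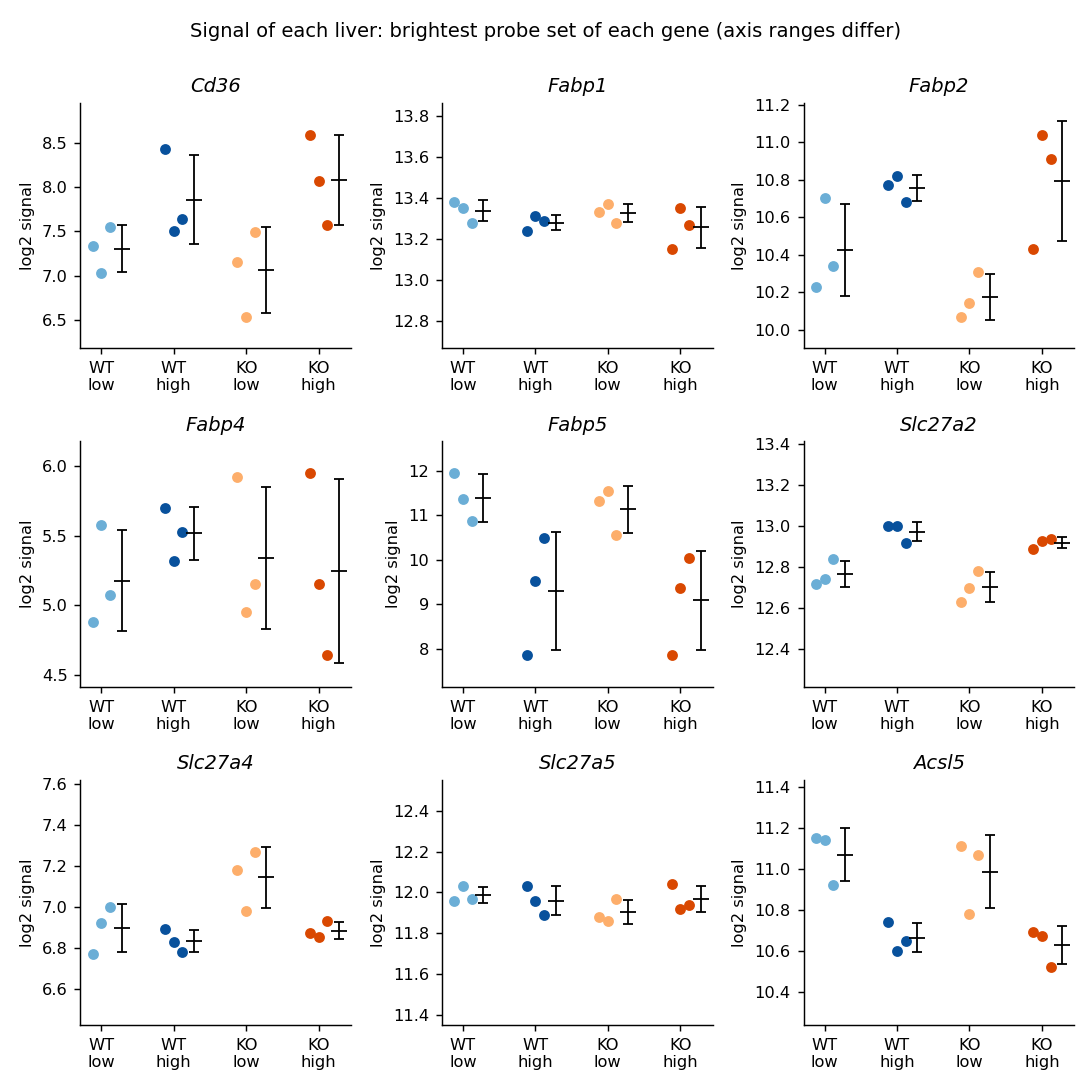
Log2 signal (vertical axis, with a different range in each panel) of the brightest probe set of each of the 9 genes in every liver, by genotype (WT wild type, KO PML knockout) and diet (low or high fat), with points for single livers and bars for the mean and SD of 3. Fabp5 ran from 10.55 to 11.95 on the low-fat diet and from 7.86 to 10.50 on the high-fat diet, while Slc27a5 stayed between 11.86 and 12.04 throughout.

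**Figure D2:**
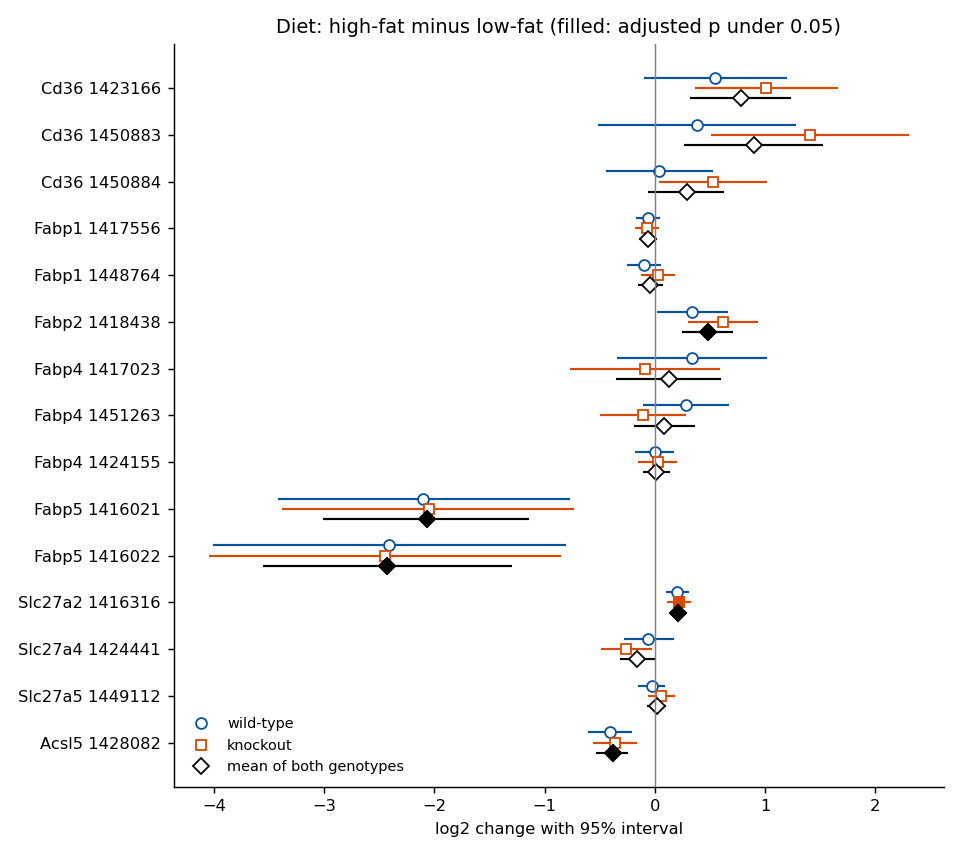
Log2 change from the low-fat to the high-fat diet (horizontal axis) with its 95% interval for each of the 15 probe sets, in wild-type livers (circles), knockout livers (squares) and the mean of both genotypes (diamonds), with filled symbols for an adjusted p under 0.05. Both Fabp5 probe sets lie furthest to the left, at -2.07 and -2.43 for the mean of both genotypes, and have the widest intervals.

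Fabp5, the epidermal fatty acid binding protein, which many cell types including macrophages use, had the largest averaged diet changes of the 14 tested probe sets. Probe set 1416021 read 11.95, 11.36 and 10.87 in wild-type low-fat livers and 7.87, 9.53 and 10.50 in wild-type high-fat livers. It read 11.32, 11.56 and 10.55 in knockout low-fat livers and 7.86, 9.36 and 10.05 in knockout high-fat livers. Every high-fat liver lay below every low-fat liver, and the lowest liver of each genotype on the high-fat diet, replicate 1, stood more than a log2 unit below the next.

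The second Fabp5 probe set, 1416022, moved with the first (Pearson's r = 1.00 over 12 livers). It read 10.14, 9.59 and 8.67 in wild-type low-fat livers, 5.42, 7.38 and 8.37 in wild-type high-fat livers, 9.53, 9.92 and 8.50 in knockout low-fat livers and 5.33, 7.33 and 7.95 in knockout high-fat livers. Here too the diets did not overlap. Averaged over both genotypes, probe set 1416021 fell by 2.07 on the log2 scale (SE 0.434, 95% interval -3.01 to -1.14), which is 4.21-fold lower, with a limma adjusted p of 0.0231. Probe set 1416022 fell by 2.43 (SE 0.523), 5.39-fold lower, with a limma adjusted p of 0.0265. Within genotypes probe set 1416021 changed by -2.10 in wild-type livers (limma adjusted p = 0.324) and by -2.05 in knockout livers (limma adjusted p = 0.114), neither of which passed. Leaving out replicate 1 of the high-fat group made these changes -1.38 and -1.44, and leaving out its replicate 3 made them -2.70 and -2.53.

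Fabp5 also varied widely among livers of one kind. On the high-fat diet the 6 livers spanned 2.64 log2 units in probe set 1416021, a 6.24-fold range, and 3.04 units in probe set 1416022, an 8.23-fold range. On the low-fat diet the 6 livers spanned 1.41 units in probe set 1416021, a 2.65-fold range. The SD within groups of probe set 1416021 was larger than that of 99.8% of all probe sets tested. The adjusted p of the averaged diet change ran from 0.0135 to 0.0662 for probe set 1416021 and from 0.0194 to 0.0754 for probe set 1416022 when single livers were left out. Both calls were lost without any one of 5 livers, which were replicate 1 of the wild-type low-fat group, replicate 2 of the wild-type high-fat group, replicates 1 and 2 of the knockout low-fat group and replicate 2 of the knockout high-fat group, and that of 1416022 also without wild-type high-fat replicate 1 (limma adjusted p = 0.05). Both were also lost with a variance estimate that is robust to outlying probe sets (limma adjusted p = 0.0818 and 0.0873). Macrophages also make Fabp5. Averaged over both genotypes, 11 of the 11 tested macrophage markers had higher means on the high-fat diet (median log2 change 0.37), and limma called 0. The part of these cells in the Fabp5 values was not tested. Without both livers that were low in macrophage markers the changes were -2.21 (limma adjusted p = 0.0451) and -2.55 (limma adjusted p = 0.0535).

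Fabp2, the intestinal fatty acid binding protein, rose on the high-fat diet. Its only probe set, 1418438, read 10.23, 10.70 and 10.34 in wild-type low-fat livers and 10.77, 10.82 and 10.68 in wild-type high-fat livers. It read 10.07, 10.14 and 10.31 in knockout low-fat livers and 10.43, 11.04 and 10.91 in knockout high-fat livers. Knockout livers did not overlap between diets, while among wild-type livers low-fat replicate 2 reached into the high-fat range. The averaged change was 0.48 (SE 0.104, 1.39-fold, limma adjusted p = 0.0274). Within genotypes the change was 0.34 in wild-type (limma adjusted p = 0.581) and 0.62 in knockout livers (limma adjusted p = 0.0528). The averaged call was lost, at adjusted p from 0.053 to 0.0755, when any one of 8 livers was left out, namely wild-type low-fat replicates 1 and 3, wild-type high-fat replicates 1 and 2, knockout low-fat replicates 1 and 2, and knockout high-fat replicates 2 and 3. It was also lost with no variance trend (limma adjusted p = 0.0515) and without both livers low in macrophage markers, where the change was 0.44 (limma adjusted p = 0.11). The enterocyte markers averaged 3.20 to 3.45 in all 12 livers, close to the dim end of the array.

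Fabp1, the liver fatty acid binding protein, was near the top of the signal range in every liver and did not pass in any comparison. Probe set 1417556 read 13.38, 13.35 and 13.28 in wild-type low-fat livers, 13.24, 13.31 and 13.29 in wild-type high-fat livers, 13.33, 13.37 and 13.28 in knockout low-fat livers and 13.15, 13.35 and 13.27 in knockout high-fat livers. Probe set 1448764 lay between 12.94 and 13.30 in all 12 livers. The groups overlapped for both probe sets. The averaged diet changes were -0.06 (95% interval -0.14 to 0.02) and -0.04 (95% interval -0.15 to 0.07). Signals this bright can be compressed on arrays, so these intervals bound the change of signal rather than of RNA.

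Fabp4, the adipocyte fatty acid binding protein, which endothelial cells and macrophages also make, was dim. Probe set 1417023 read 4.88, 5.58 and 5.07 in wild-type low-fat livers, 5.70, 5.32 and 5.53 in wild-type high-fat livers, 5.92, 4.95 and 5.15 in knockout low-fat livers and 5.95, 5.15 and 4.64 in knockout high-fat livers. Probe set 1451263 read 4.67, 5.15 and 4.79, then 5.18, 5.16 and 5.11, then 5.18, 4.62 and 4.72, then 5.03, 4.67 and 4.48 in the same order of groups. Probe set 1424155 lay between 2.63 and 2.91 in all livers, under the brightness limit of 3.82, and was not tested. The groups overlapped for every diet comparison, and the averaged diet changes were 0.13 and 0.08 in the tested probe sets (limma adjusted p = 0.833 and 0.8). In RefSeq's order of genes on chromosome 3 (GRCm38.p6), Fabp4 follows Fabp5 with Pmp2 and Fabp9 between them.

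Endothelial markers, whose cells make Fabp4, varied among the same livers. Knockout high-fat replicates 2 and 3 had the lowest endothelial means, 5.99 and 5.98, and Fabp4 probe set 1417023 read 5.15 and 4.64 there. Knockout low-fat replicate 2, with an endothelial mean of 6.06, read 4.95, whereas knockout low-fat replicate 1, with the highest endothelial mean of 7.02, read 5.92. Knockout low-fat replicate 3 and knockout high-fat replicate 1, with endothelial means of 6.53 and 6.78, read 5.15 and 5.95. Wild-type low-fat livers, with endothelial means of 6.63, 6.83 and 6.59, read 4.88, 5.58 and 5.07. Wild-type high-fat livers, with endothelial means of 6.79, 6.67 and 6.53, read 5.70, 5.32 and 5.53. Of the endothelial list, all 12 genes had a tested probe set, with means from 3.91 (Lyve1) to 8.74 (Fcgr2b). Macrophage markers, whose cells also make Fabp4, varied among these livers too. Their mean was 4.92 in knockout low-fat replicate 2 and 5.51 in knockout high-fat replicate 3. It was 6.70 in knockout low-fat replicate 1 and 6.95 in knockout high-fat replicate 1, where Fabp4 read 5.95. Knockout high-fat replicate 2 had a macrophage mean of 6.54, and wild-type low-fat replicate 1 had 6.04. The part of either cell type in the Fabp4 values was not tested.

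**Figure D3:**
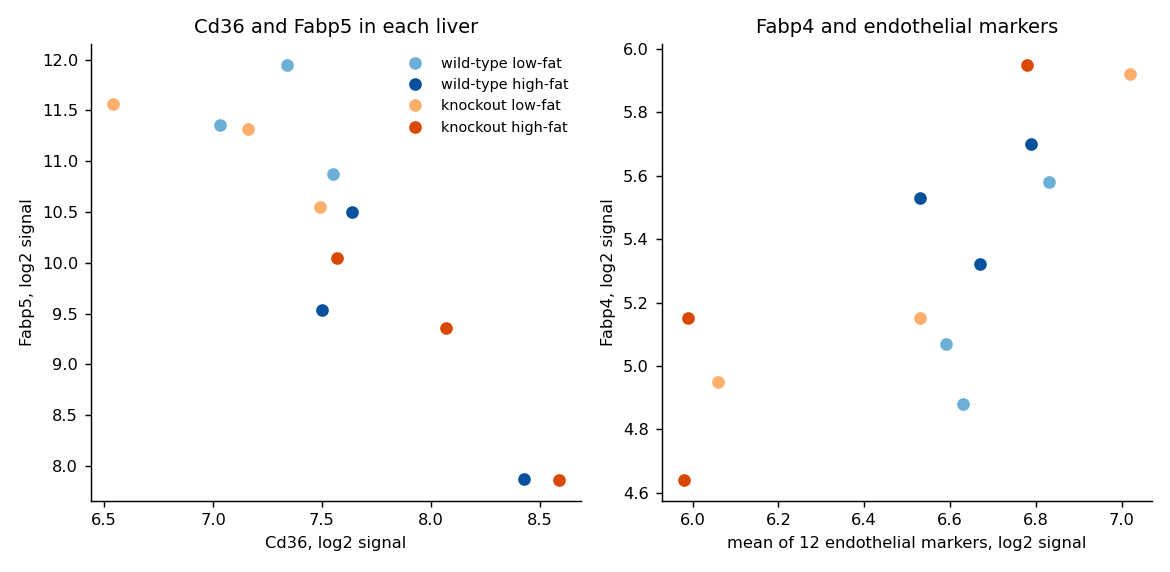
Each point is 1 of the 12 livers, coloured by genotype and diet; the left panel sets the log2 signal of Cd36 (horizontal) against that of Fabp5 (vertical), and the right panel sets the mean log2 signal of 12 endothelial markers (horizontal) against Fabp4 (vertical), each gene by its brightest probe set. On the left, the replicate 1 livers of both high-fat groups lie lowest for Fabp5, at 7.87 and 7.86, and highest for Cd36, at 8.43 and 8.59.

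Cd36, the membrane receptor that takes up long-chain fatty acids and oxidised lipoproteins, had higher mean signals on the high-fat diet in all 3 probe sets, and none passed the test. Probe set 1423166 read 7.34, 7.03 and 7.55 in wild-type low-fat livers and 8.43, 7.50 and 7.64 in wild-type high-fat livers. It read 7.16, 6.54 and 7.49 in knockout low-fat livers and 8.59, 8.07 and 7.57 in knockout high-fat livers. The knockout diet groups did not overlap, and the wild-type groups did, with high-fat replicate 2 inside the low-fat range. Averaged over both genotypes the change was 0.78 (SE 0.212, 95% interval 0.32 to 1.24, limma adjusted p = 0.0717).

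The other Cd36 probe sets followed the first across livers (Pearson's r = 0.96 and 0.88 over 12 livers). Probe set 1450883 read 6.72, 6.53 and 6.79 in wild-type low-fat, 7.80, 6.77 and 6.61 in wild-type high-fat, 6.13, 5.07 and 6.71 in knockout low-fat and 8.10, 7.32 and 6.73 in knockout high-fat livers. Its averaged change was 0.90 (SE 0.294, limma adjusted p = 0.127). Probe set 1450884, dimmer, lay between 3.60 and 4.76 in all livers and had an averaged change of 0.29 (limma adjusted p = 0.386). Knockout low-fat replicate 2 was the lowest liver of its group in the first 2 probe sets and read 3.63, beside 3.60 in replicate 1, in the third. Replicate 1 of each high-fat group was the highest of its group in all 3.

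In wild-type livers the diet changes of the 3 Cd36 probe sets, in the order just given, were 0.55, 0.38 and 0.04 (limma adjusted p = 0.685, 0.867 and 0.978). In knockout livers they were 1.01, 1.41 and 0.53 (limma adjusted p = 0.111, 0.109 and 0.267). Single livers moved these values in both directions. The wild-type changes were 0.26, 0.01 and -0.15 without wild-type high-fat replicate 1, and 0.73, 0.52 and 0.22 without wild-type high-fat replicate 2. The knockout changes ran from 0.75 to 1.27, from 0.96 to 1.78 and from 0.30 to 0.74 over the alternatives, and probe set 1450883 passed when knockout low-fat replicate 3 was left out (1.78, limma adjusted p = 0.0438).

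Cd36 is also made by macrophages and endothelial cells. Macrophage markers had higher means on the high-fat diet, as Cd36 had, in 11 of the 11 tested genes averaged over both genotypes (median log2 change 0.37), in 11 of 11 in wild-type livers (median 0.43) and in 9 of 11 in knockout livers (median 0.47). The median over all probe sets tested was -0.01 in each of these comparisons. In none of them did limma call a macrophage marker (0 of 11, and 0 at an unadjusted p under 0.05). Endothelial markers had higher averaged means in 1 of 12 genes (median -0.22). Single livers went both ways. Wild-type high-fat replicate 1, highest of its group for Cd36, had a macrophage mean of 6.37, against 6.49 and 6.45 in replicates 2 and 3. Knockout high-fat replicate 1, also highest of its group for Cd36, had the highest macrophage mean, 6.95. The part of either cell type in the Cd36 values was not tested. Both marker lists were low in knockout low-fat replicate 2, with a macrophage mean of 4.92. The other knockout low-fat livers had macrophage means of 6.70 and 6.31, inside the knockout high-fat range of 5.51 to 6.95. The higher macrophage markers of knockout livers on the high-fat diet thus depended largely on that low-fat liver. Without knockout low-fat replicate 2 the knockout diet changes of Cd36 were 0.75, 0.96 and 0.46. Without both livers low in macrophage markers the averaged changes were 0.78, 0.83 and 0.36, and the limma adjusted p of probe set 1423166 was 0.0736. The brightest probe set passed the averaged comparison when replicate 3 of the knockout low-fat group (limma adjusted p = 0.0476) or of the knockout high-fat group (limma adjusted p = 0.0479) was left out.

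Slc27a2, or FATP2, is a liver transporter that also activates very-long-chain fatty acids. It rose on the high-fat diet by a small amount with little spread. Probe set 1416316 read 12.72, 12.74 and 12.84 in wild-type low-fat livers, 13.00, 13.00 and 12.92 in wild-type high-fat livers, 12.63, 12.70 and 12.78 in knockout low-fat livers and 12.89, 12.93 and 12.94 in knockout high-fat livers. Every high-fat liver lay above every low-fat liver. The averaged change was 0.21 (SE 0.0353, 95% interval 0.14 to 0.29), 1.16-fold, with a limma adjusted p of 0.00708. This signal, like that of Fabp1, is among the brightest on the array, and both its change and its spread can be compressed. The SD within groups was smaller than in most probe sets: only 1.77% of those tested had a smaller one. The change was 0.20 in wild-type livers (limma adjusted p = 0.192) and 0.22 in knockout livers (SE 0.0499, limma adjusted p = 0.045).

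The averaged Slc27a2 call was kept whichever single liver was left out and was lost with no variance trend (limma adjusted p = 0.0781). The knockout call lay close to the threshold, with an adjusted p between 0.026 and 0.237 over the alternatives. It was kept without replicate 3 of either low-fat group and lost without any other single liver, for example at an adjusted p of 0.162 without knockout high-fat replicate 2.

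Slc27a5, or FATP5, a liver protein that also activates bile acids, and Slc27a4, or FATP4, which is found in many tissues, did not pass in any comparison. Slc27a5 probe set 1449112 lay between 11.86 and 12.04 in all 12 livers, and its averaged diet change was 0.02 (95% interval -0.07 to 0.10). Slc27a4 probe set 1424441 read 6.77, 6.92 and 7.0 in wild-type low-fat livers, 6.89, 6.83 and 6.78 in wild-type high-fat livers, 7.18, 6.98 and 7.27 in knockout low-fat livers and 6.87, 6.85 and 6.93 in knockout high-fat livers. All 3 knockout high-fat livers lay below all 3 knockout low-fat livers, while the wild-type diet groups overlapped. The diet change of Slc27a4 was -0.26 in knockout livers (limma adjusted p = 0.239) and -0.06 in wild-type livers (limma adjusted p = 0.927).

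Acsl5, an acyl-CoA synthetase of the endoplasmic reticulum and mitochondria, fell on the high-fat diet. Probe set 1428082 read 11.15, 11.14 and 10.92 in wild-type low-fat livers, 10.74, 10.60 and 10.65 in wild-type high-fat livers, 11.11, 10.78 and 11.07 in knockout low-fat livers and 10.69, 10.67 and 10.52 in knockout high-fat livers. The diets did not overlap, and the nearest pair of livers, knockout low-fat replicate 2 and wild-type high-fat replicate 1, read 10.78 and 10.74. The averaged change was -0.38 (SE 0.0656, 95% interval -0.53 to -0.24), 1.30-fold lower, with a limma adjusted p of 0.00804. This call was kept under all 22 alternatives run, single livers left out included. The change was -0.41 in wild-type livers (limma adjusted p = 0.142) and -0.36 in knockout livers (limma adjusted p = 0.0739).

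Loss of Pml was accompanied by no change that passed the test in these genes on either diet. On the low-fat diet 0 of the 14 probe sets were called and 1 had an unadjusted p under 0.05, with 0.00577% of all tested called (1 probe set) and 8.13% under 0.05 unadjusted. The genotypes did not overlap there in 0 of the 14, against 11.4% of all. On the high-fat diet 0 of the 14 were called and 1 had an unadjusted p under 0.05, with 0.00577% of all tested called and 4.35% under 0.05 unadjusted. The genotypes did not overlap in 1 of the 14, against 11.5% of all. Averaged over both diets 0 of the 14 were called and 0 had an unadjusted p under 0.05, with 0.00577% of all called and 6.62% under 0.05 unadjusted, and the 6 knockout and 6 wild-type livers did not overlap in 0 of the 14, against 0.242% of all. These tests are limma's, with Benjamini-Hochberg adjustment. The median log2 difference over the 14 probe sets was -0.10 on the low-fat diet, -0.01 on the high-fat diet and -0.06 averaged. Over all probe sets tested it was 0.00, 0.01 and 0.01. Knockout means were higher in 2, 7 and 1 of the 14, against 49.6%, 53.4% and 52.3% of all. Since probe sets of the same gene move together, the 14 are not separate cases.

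**Figure D4:**
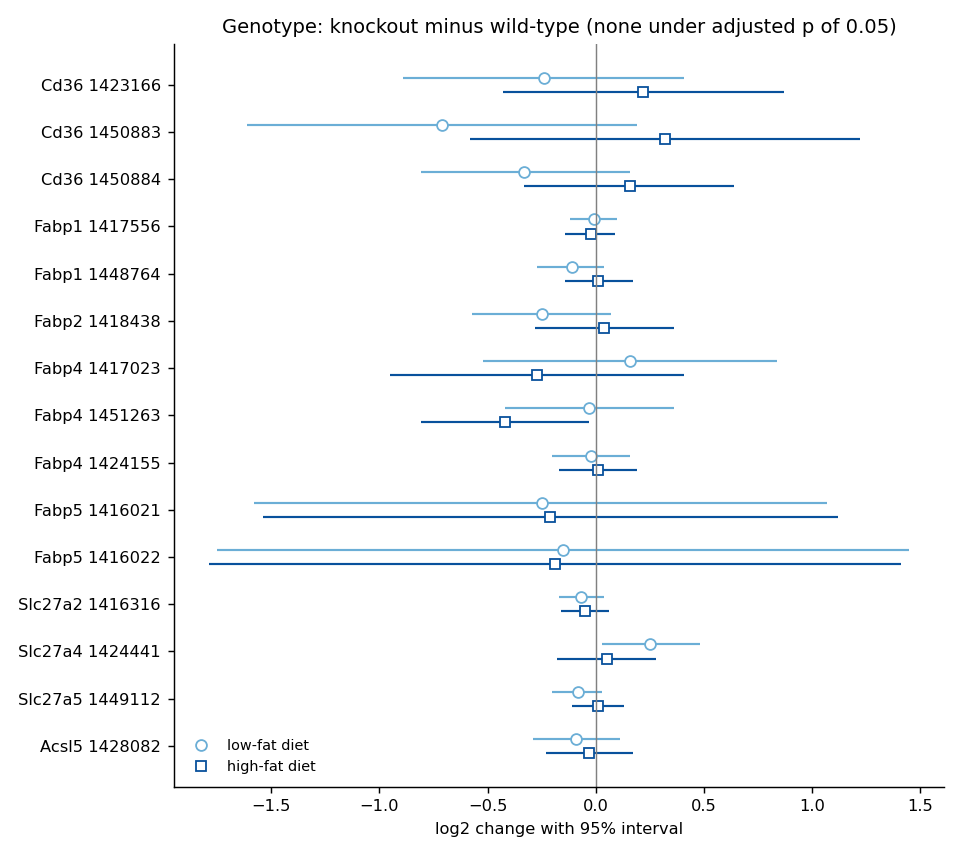
Log2 difference between knockout and wild-type livers (horizontal axis) with its 95% interval for each of the 15 probe sets, on the low-fat diet (circles) and on the high-fat diet (squares). The intervals include 0 except those of Slc27a4 on the low-fat diet, 0.03 to 0.48, and of Fabp4 probe set 1451263 on the high-fat diet, -0.81 to -0.03.

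The lowest unadjusted p on the low-fat diet belonged to Slc27a4, whose knockout mean of 7.15 ± 0.149 (SD, n = 3) stood against 6.89 ± 0.117 (SD, n = 3) in wild-type livers. The difference was 0.25 (SE 0.104, limma adjusted p = 0.575), and the groups overlapped. On the high-fat diet it belonged to Fabp4 probe set 1451263, at 4.73 ± 0.283 (SD, n = 3) in knockout and 5.15 ± 0.0351 (SD, n = 3) in wild-type livers. That difference was -0.42 (SE 0.181, limma adjusted p = 0.997), and the groups did not overlap, as in 5.01% of all probe sets tested with the knockout lower. The other tested Fabp4 probe set differed by -0.27 with a 95% interval of -0.95 to 0.41. Both knockout high-fat livers with the lowest endothelial markers are in this comparison. Of these, replicate 3 also had the lowest macrophage mean on the high-fat diet, 5.51. The part of these livers in the difference was not tested.

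For Cd36 the difference between genotypes on the low-fat diet was -0.24, -0.71 and -0.33 in probe sets 1423166, 1450883 and 1450884 (limma adjusted p = 0.88, 0.708 and 0.756). Without knockout low-fat replicate 2, the liver with the lowest macrophage markers, it was 0.02, -0.26 and -0.26. Without knockout low-fat replicate 3 it was -0.46, -1.08 and -0.48. On the high-fat diet the difference was 0.22, 0.32 and 0.16 (limma adjusted p = 0.997 for each). The intervals were wide for Cd36 and Fabp5 and narrow for the brightest genes. On the low-fat diet the 95% interval ran from -1.58 to 1.07 for Fabp5 probe set 1416021, from -0.17 to 0.04 for Slc27a2, from -0.12 to 0.10 for Fabp1 probe set 1417556, from -0.20 to 0.03 for Slc27a5 and from -0.29 to 0.11 for Acsl5.

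Whether the response to diet differed between genotypes was tested directly, as the difference of the diet changes. Here limma called 0 of the 14 probe sets, and 0 had an unadjusted p under 0.05. Over all 17339 probe sets the same test called 0, and 955 (5.51%) had an unadjusted p under 0.05. The difference for Cd36 was 0.47, 1.03 and 0.49 in probe sets 1423166, 1450883 and 1450884 (limma adjusted p = 0.921, 0.901 and 0.901), with a 95% interval of -0.24 to 2.31 for probe set 1450883. It was 0.21, 0.58 and 0.42 without knockout low-fat replicate 2, and 0.21, 0.67 and 0.25 without knockout high-fat replicate 1. It was 0.76, 1.40 and 0.68 without wild-type high-fat replicate 1, and 0.68, 1.40 and 0.64 without knockout low-fat replicate 3. Over all alternatives it ran from 0.21 to 0.76, from 0.58 to 1.40 and from 0.25 to 0.70. For Fabp5 the difference was 0.04 in probe set 1416021 (95% interval -1.84 to 1.92, from -0.67 to 0.66 over the alternatives), for Fabp2 0.29 (-0.16 to 0.74), for Slc27a2 0.02 (-0.14 to 0.17) and for Acsl5 0.05 (-0.23 to 0.34). The knockout diet changes that passed or came near the threshold were thus not shown to differ from those of wild-type livers.

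Across single livers, Cd36 tended to be high where Fabp5 was low, a relation that did not pass adjustment on either diet. Over the 6 high-fat livers Pearson's r between their brightest probe sets was -0.91 (exact permutation p = 0.0236, two-sided, adjusted p = 0.425 over 72 relations) and Spearman's rho was -0.77 (exact permutation p = 0.103, adjusted p = 0.612). Without the 2 livers farthest from the median of Cd36, r was -0.46. Leaving out the extremes of Cd36 narrows its range, which by itself tends to weaken r, so this value cannot show what the relation rests on. Over the 6 low-fat livers r was -0.50 (exact permutation p = 0.324, adjusted p = 0.741) and rho was -0.60 (exact permutation p = 0.242, adjusted p = 0.711), and r was -0.39 without the 2 farthest. The 72 relations were all pairs of the 9 genes within each diet, and 0 of them passed Benjamini-Hochberg adjustment. They pooled both genotypes, and the permutations treated the 6 livers of a diet as exchangeable. In both genotypes Fabp5 rose from replicate 1 to replicate 3 on the high-fat diet, so it is not settled that these livers are independent. The lowest adjusted p, 0.2, belonged to Fabp1 and Fabp5 on the low-fat diet (r = 0.96, exact permutation p = 0.00278; rho = 0.94, exact permutation p = 0.0167). On the high-fat diet the same pair had an r of 0.68 (exact permutation p = 0.136). Cd36 was not the gene most closely related to Fabp5 there. Slc27a5 had an r of -0.94 with Fabp5 (exact permutation p = 0.0153, adjusted p = 0.367) and a rho of -0.83 (exact permutation p = 0.0583).

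The genes whose brightest probe set followed a member most closely over the 12 livers were found by Pearson's r, as a description in which the livers share diet and genotype. Slc27a2 ran with Vwa8, a mitochondrial ATPase (r = 0.973), Hibch, an enzyme of valine breakdown (r = 0.955), and Cyp4a10, a fatty acid ω-hydroxylase (r = 0.948). Fabp2 ran with Acaa1a, the peroxisomal thiolase (r = 0.95), Nceh1, a cholesterol ester hydrolase (r = 0.94), and Ifngr2, an interferon-γ receptor subunit (r = 0.937). Acsl5 ran with Reck, an inhibitor of matrix proteases (r = 0.943), Acly, ATP-citrate lyase (r = 0.941), and Fasn, fatty acid synthase (r = 0.933). Fabp5 ran with Cyp2f2, a cytochrome P450 (r = 0.931), Cadm4, a cell adhesion protein (r = 0.93), and Atrn, attractin (r = 0.917). Cd36 ran with Bloc1s1, a subunit of lysosomal trafficking complexes (r = 0.931), Cisd3, an iron-sulfur protein (r = 0.919), and Bola3, an assembly factor for such proteins (r = 0.889).

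Other carriers and activators of fatty acids changed with diet in both directions. The list held 32 further genes (other Fabp, Slc27 and Acsl members, medium-chain synthetases, acyl-CoA binding proteins, lipases and lipoprotein receptors), of which 27 had a probe set and 21 a tested one, 34 probe sets in all. In the averaged diet comparison 3 of the 34 were called higher and 3 lower, against 1.60% and 1.34% of all probe sets tested. The median change of each gene's brightest probe set was 0.05, against -0.01 over all probe sets tested. Those that rose were Acsm5 (0.41, limma adjusted p = 0.01) and Acsm3 (0.37, limma adjusted p = 0.00797), medium-chain acyl-CoA synthetases of mitochondria, and Acsf3, a mitochondrial malonyl-CoA synthetase (0.33, limma adjusted p = 0.0246). All 3 that fell were probe sets of Dbi, the acyl-CoA binding protein, at -0.35, -0.24 and -0.28 (limma adjusted p = 0.00473, 0.0282 and 0.0246). The fourth Dbi probe set changed by -0.25 (limma adjusted p = 0.0627). In knockout livers alone only Acsm5 was called (0.50, limma adjusted p = 0.0296), and in wild-type livers limma called 0, with 8 of the 34 at an unadjusted p under 0.05, against 8.24% of all. On the low-fat diet, on the high-fat diet and averaged over both, the comparison of genotypes called 0 of the 34 with limma, and 0, 2 and 4 had an unadjusted p under 0.05, against 8.13%, 4.35% and 6.62% of all. In the difference of diet changes 0 were called and 0 had an unadjusted p under 0.05, against 5.51% of all.

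The nuclear receptors that act on these genes were followed through 7 genes (Ppara, Pparg, Ppard, Rxra, Nr1h3, Nr1i2 and Hnf4a), of which 6 had 13 tested probe sets. Limma called 1 of the 13 in 1 of the 7 comparisons and 0 in the others. In knockout livers on the high-fat against the low-fat diet 1 probe set of Hnf4a, the hepatocyte nuclear factor that also binds DR1 elements, was called lower (-0.39, limma adjusted p = 0.0279), where 1.83% of all probe sets tested were called. Its 3 other probe sets changed by -0.26, -0.41 and -0.15 and did not pass. Among the hepatocyte markers, the wild-type means of Hnf4a were close, at 11 (low-fat) and 11.02 (high-fat). The knockout means were 11.32 (low-fat) and 10.93 (high-fat), so the fall began above the wild-type means and ended slightly below them. The 3 Ppara probe sets changed by 0.30, 0.50 and 0.39 between the diets in knockout livers (limma adjusted p = 0.145, 0.131 and 0.0632).

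Between genotypes on the low-fat diet, Ppara, the gene of PPARα, had lower means in knockout livers in all 3 probe sets (log2 differences of -0.47, -0.80 and -0.45), with unadjusted limma p of 0.000338, 0.000225 and 0.000514 that did not pass adjustment (adjusted p = 0.226, 0.208 and 0.262). On the high-fat diet the same probe sets differed by -0.11, 0.00 and -0.13 (limma adjusted p = 0.997, 1 and 0.997). The difference of the diet changes was 0.36, 0.80 and 0.32 (limma adjusted p = 0.87, 0.87 and 0.875). Of the 13 receptor probe sets, 6 had an unadjusted p under 0.05 for genotype on the low-fat diet, 2 on the high-fat diet, 9 averaged over both diets and 4 for the difference of diet changes. The shares over all probe sets tested were 8.13%, 4.35%, 6.62% and 5.51%. The same counts for diet were 1 in wild-type livers, 6 in knockout livers and 5 averaged over both genotypes, against 8.24%, 15.7% and 17.4% of all. The median log2 difference between genotypes over the brightest probe sets of the 6 genes was 0.21 on the low-fat diet, against 0.00 over all probe sets tested. Thus Ppara did not stand for the list, since 4 of these 6, Hnf4a among them, had higher means in knockout livers on that diet.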

How the data were processed

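Total RNA of 12 liver extracts was prepared with Trizol and hybridised to perfect-match arrays, 1 array per extract, per the labels' protocols. The authors deposited 1 log2 signal for each of 45141 probe sets and array. Per the submitters' processing notes the tool was RMA, of unstated version. In common use RMA forces the arrays onto one distribution, so a shift common to all genes is lost. Very bright and very dim signals can be compressed on arrays. Depth does not apply to arrays, and the 3 arrays per group limit the precision.

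Control probe sets (104) and probe sets naming several genes (551) or none (15588) were left out. Of the remaining 28898, the 40% with the lowest mean (11559) were left out as dim, so that the lowest mean tested was 3.82. Group means were fitted over all 12 arrays with limma 3.58.1 in R 4.3.3 (8 residual degrees of freedom, variance trend), with Benjamini-Hochberg adjustment over 17339 probe sets in each of 7 comparisons and none across them. A probe set was called at an adjusted p under 0.05; fold sizes are powers of 2 of the log2 change, and values after ± are SD. Relations between genes used exact permutation tests. The fit was tested on simulated data.

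The labels do not pair equally numbered extracts, so the number was not used as a block. Deviations of equally numbered extracts from the group means correlated at -0.12 to 0.34. Unequally numbered extracts were not compared, so this range cannot show whether the numbers pair the extracts. The members, gene lists and tests were chosen with earlier results of these data known. All probe sets of the members are given; other genes of the pathway are named where a probe set was called, and Ppara and the uncalled probe sets of Dbi and Hnf4a were named after their values were seen. The 3 genes most like Cd36 and each member with a called brightest probe set were ranked by Pearson's r. Promoters come from RefSeq (GRCm38.p6), with 250 bases before each start; those of Fabp4, Fabp5 and Slc27a5 were not used here. Alternatives are given in the closing section.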

Additional observations from a re-analysis of the deposited data

How the results depend on the processing

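The averaged diet comparison called 5 of the 14 probe sets, and the count was 3 with robust variance, 3 with no variance trend and 3 without the 2 livers lowest in macrophage markers, an alternative chosen after seeing the data. It was 2 to 6 when single livers were left out, with 2 called, Acsl5 and Slc27a2, without replicate 1 of the wild-type low-fat group, replicate 2 of the wild-type high-fat group, either of replicates 1 and 2 of the knockout low-fat group, or replicate 2 of the knockout high-fat group. It was 3 without replicate 1 of the wild-type high-fat group. Over all probe sets the count moved too, from 254 to 586 when single livers were left out, against 510 with all. Quantile normalization, median centring, either other brightness limit and the use of all non-control probe sets left it at 5.

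The diet comparison in knockout livers called 1 probe set and was the least stable. The count was 2 with quantile normalization, with 60% of probe sets left out as dim and with the brightest probe set of each gene. It was 0 with median centring, no brightness limit, all non-control probe sets, no variance trend, only the 2 groups compared and without the 2 livers lowest in macrophage markers. It ran from 0 to 3 when single livers were left out, while the count over all probe sets ran from 75 to 541, against 318 with all. It was 0 without replicate 1 of either low-fat group, any replicate of the wild-type high-fat group, or replicate 2 or 3 of the knockout high-fat group, and 3 without knockout low-fat replicate 3. The cause of these changes was not tested.

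With the replicate number as a block, which the labels do not say pairs the samples, the averaged comparison called 6 probe sets, Cd36 1423166 among them (limma adjusted p = 0.041). The blocked knockout comparison called 1, Fabp2 (limma adjusted p = 0.0304) in place of Slc27a2 (limma adjusted p = 0.051). All other comparisons called 0 of the 14 under every alternative run, and no called change reversed its direction. With 3 arrays a group, a change in a gene as variable as Fabp5 or Cd36 has a wide interval.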
